A study of Mus musculus with 4 samples.

Results

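The genes described here are the colony-stimulating factors and their receptors: the ligand genes Csf1, Csf2 and Csf3 and the receptor genes Csf1r, Csf2ra, Csf2rb, Csf2rb2 and Csf3r. They were taken by symbol, 8 of the 24422 named genes in the files, and each was read from the RefSeq transcript with the highest mean raw count. All libraries came from RAW 264.7, a mouse macrophage line transformed by Abelson leukaemia virus, grown for 3 to 6 passages in a medium that held 5.5 mmol/L glucose and 10% serum. The 2 empty vector libraries are from cells stably carrying the plasmid pcDNA 3.1(+) alone, and the 2 Dnm3os libraries are from cells in which that plasmid held Dnm3os, the gene of a long noncoding RNA. The series title concerns what Dnm3os, described there as induced by diabetes, does in macrophages. The labels do not say whether a group is 1 clone or a pool, or whether its libraries came from separate cultures, so p-values measure only the spread between these libraries, which may be technical.

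Colony-stimulating factors are secreted proteins named for the blood cell colonies they support in culture. CSF1 (M-CSF) binds CSF1R, a receptor tyrosine kinase on which macrophages depend for survival and growth, and which also binds interleukin 34. GM-CSF, the product of Csf2, and G-CSF, the product of Csf3, act through receptors with no kinase of their own that use JAK kinases: CSF2RA with the shared beta chain CSF2RB, and CSF3R. Csf2rb2 is a mouse paralog of Csf2rb whose product serves interleukin 3. Activated macrophages make G-CSF and GM-CSF, whose mRNAs are short-lived because AU-rich elements in their 3′ UTRs recruit decay proteins.

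In the Dnm3os libraries Csf3 was 2.32-fold higher than in the empty vector libraries, Csf1r was 1.21-fold higher and Csf2ra 1.09-fold higher, the last a call that most alternatives did not keep. Csf1 and the receptor genes Csf2rb, Csf2rb2 and Csf3r did not pass the test, and Csf2, with 16 counts in all, was too low to test. Of the 7 genes tested, 3 were called higher and 0 lower at an adjusted p under 0.05 in the quasi-likelihood test of edgeR (two-sided, Benjamini-Hochberg over all genes), where 6.5% of the 13172 genes tested were called higher and 5.74% lower, 12.2% in all. No member was lower even before adjustment (0 at p under 0.05), 0 were called lower with limma-voom, and DESeq2, which called 5.82% of all genes, gave 2 higher members and 0 lower. The median log2 fold change was 0.16 over the 7 members and 0.00 over all genes tested. All values of 1 group lay beyond those of the other for each of the 7, higher in 5 and lower in 2, a separation that 51.2% of all genes tested also showed (26.2% higher, 25% lower).

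The sequences below are the densest ATTTA sites of the ligand mRNAs, and a stretch of the near-identical beta chain genes, whose reads are hard to assign. Whether the ATTTA sites affect the counts was not tested. These sequences were read from the GENCODE M21 transcripts (GRCm38) paired with the kept RefSeq transcripts. In the 30 bases of each ligand's 3′ UTR with the most ATTTA pentamers, the pentamers are in capitals:
Csf1: taaggtcATTTAaatatctATTTAaaaaat
Csf2: taaatATTTATTTATTTATTTATTTAtttt
Csf3: gtttATTTAtctctATTTAatATTTAtgca

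Csf2 carried 9 ATTTA pentamers in a 3′ UTR of 317 bases, among them 5 copies of the overlapping double repeat ATTTATTTA. The site shown lies at bases 234 to 263 of that UTR. Of 446 UTRs of tested genes within 10% of its length, 0.897% held ATTTATTTA on the transcript strand and 0% held as many ATTTA pentamers. Csf3 carried 6 pentamers in 669 bases and no double repeat, a number that 1.28% of 625 UTRs of like length reached. Csf1 had 4 in 2111 bases, which 44.5% of 793 UTRs of like length reached. Among receptor genes Csf1r had 2 pentamers in 654 bases, which 30.6% of 622 UTRs of like length reached, and Csf2ra, Csf2rb, Csf2rb2 and Csf3r had 0 in 602 to 1815 bases. Over the UTRs of 11527 tested genes 66.3% held ATTTA and 5.59% held ATTTATTTA. A match describes these letters and is not evidence of a working site.

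The coding sequences of Csf2rb (2688 bases) and Csf2rb2 (2634 bases) were identical at 95.4% of 2626 aligned bases, and their longest identical run was 242 bases. The gap-free stretch of 100 bases with the most differences, where reads can be told apart, had 17 mismatches, in capitals, at coding bases 314 to 413 of Csf2rb and 317 to 416 of Csf2rb2:
Csf2rb: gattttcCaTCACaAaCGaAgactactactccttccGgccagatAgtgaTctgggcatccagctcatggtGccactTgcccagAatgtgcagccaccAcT
Csf2rb2: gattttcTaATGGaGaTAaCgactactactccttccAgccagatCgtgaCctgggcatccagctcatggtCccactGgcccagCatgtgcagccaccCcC

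Over the whole transcripts, 25.6% of the 36-base stretches of Csf2rb also occurred in Csf2rb2, as did 18.9% of its 50-base and 7.16% of its 100-base stretches. How the authors' counting treated such reads is not given in the sources used here, so the values of both genes are uncertain. The microRNA genes Mir7676-2 and Mir7676-1 lie on the same strand within exons of Csf2rb and Csf2rb2 and cover 1.30% and 1.31% of their transcripts. The predicted gene Gm12223 runs opposite to 12% of the Csf2 transcript. No other exons in that annotation covered bases of the 8 kept transcripts.

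Summed counts over 1 transcript per gene ranged from 29416277 to 39769635 per library. As its labels say, Dnm3os itself was counted 0 times in both libraries of the empty vector, against 208 and 260 times in the others. Of 10 macrophage markers 9 could be tested, and their summed level was 9193 to 9318 CPM (read counts scaled to the total of the library) in the empty vector and 9955 to 10412 CPM in the Dnm3os libraries, with Mertk, an apoptotic cell receptor, at 0 or 1 count. Lyz2, the lysozyme gene, made up most of that sum, and the other 9 summed to 2231 to 2255 CPM and 2376 to 2379 CPM. Of these markers 3 were higher and 2 lower, where 6.5% of all genes tested were called higher and 5.74% lower. The integrin chain Itgam changed by 1.01 ± 0.04 and the F4/80 gene Adgre1 by -0.30 ± 0.04 on the log2 scale (± SE). Markers of fibroblasts and B cells had at most 2 counts a gene in any library. The 6 T cell markers summed to 6.57 and 7.19 CPM against 5.44 and 5.60 CPM, nearly all from the kinase gene Lck, which is not limited to T cells and was not called; Cd8a and Cd3d had at most 6 counts, and Cd3e and Cd3g had 0. Granulocyte markers summed to 22.7 to 24.2 CPM in the empty vector and 26.7 to 28.5 CPM in the Dnm3os libraries, nearly all of it from Cxcr2 and S100a8, with the defining genes Ly6g, Mpo, Ltf, Camp and Ngp at 0. Cxcr2 was called higher (log2 fold change 0.21 ± 0.07, adjusted p = 0.0473 by edgeR), a call not followed over the alternatives. S100a8 was not called (0.34 ± 0.13, adjusted p = 0.0923 by edgeR). The part of any of these cell types in the results was not tested. In bulk RNA, a change in the share of cells of 1 kind and a change in RNA per cell cannot be told apart.

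Compared per transcript length, as CPM per kb, Csf1r stood far above the other genes, at 161 ± 4.90 in the empty vector and 194 ± 4.74 in the Dnm3os libraries (SD, n = 2 per group here and below). Csf2ra followed with 37.4 ± 0.467 and 40.8 ± 1.65 CPM per kb. In the empty vector group Csf2rb (6.66 ± 0.0340) and Csf3 (5.79 ± 1.01) came next and differed by less than the SD of Csf3, whereas in the Dnm3os group Csf3 (13.4 ± 0.358) was above Csf2rb (7.42 ± 0.328). Csf2rb2 (4.13 ± 0.115 and 3.80 ± 0.0873) and Csf3r (1.05 ± 0.0346 and 0.995 ± 0.0267) were lower. The ligand genes Csf1 (0.162 ± 0.00866 and 0.201 ± 0.0269) and Csf2 (0.0470 ± 0.0665 and 0.252 ± 0.0561) were lowest, and in the Dnm3os group the libraries of these genes overlapped. The plot of levels per length shows the order.

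**Figure D1:**
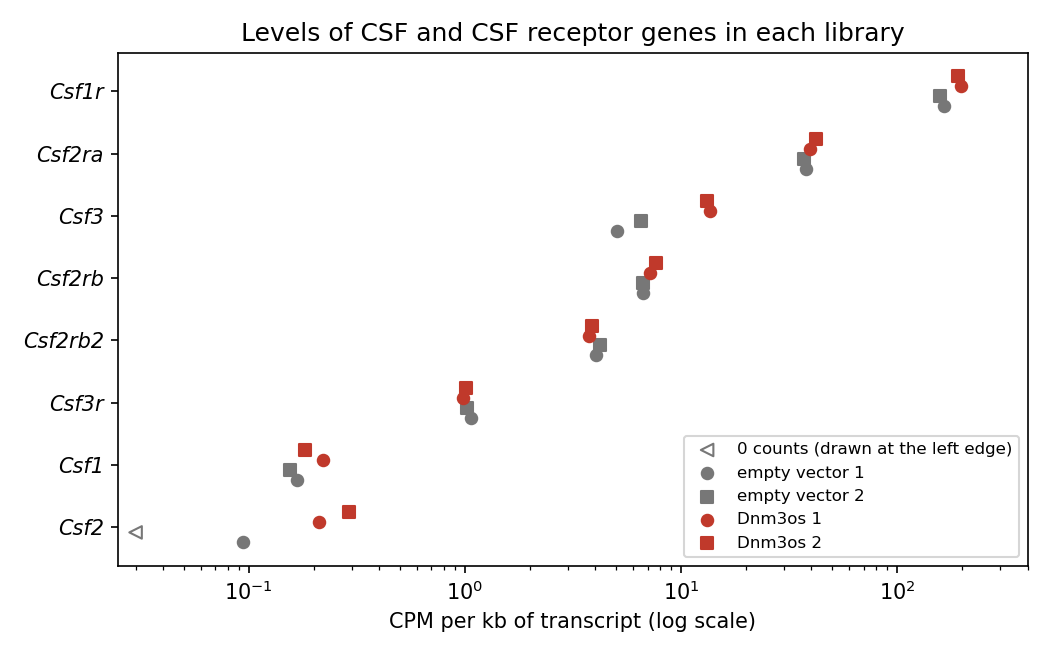
Level of each gene in each library as CPM per kb of transcript, on a log axis; circles are libraries numbered 1 and squares libraries numbered 2, grey for empty vector and red for Dnm3os. Csf1r lies highest at 158 to 198 CPM per kb, Csf3 is the gene whose groups stand visibly apart among those with ample counts, and the open triangle marks the empty vector library with 0 counts of Csf2.

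Csf3, which encodes the granulocyte growth factor G-CSF, had 286 and 325 counts in the libraries numbered 1 and 2 of the empty vector group, against 567 and 636 in those of the Dnm3os group, or 7.17, 9.20, 19.3 and 18.5 CPM. Both Dnm3os libraries were above both empty vector libraries, and the empty vector libraries differed from each other more than the Dnm3os libraries did. The means were 8.18 ± 1.43 and 18.9 ± 0.506 CPM, a log2 fold change of 1.21 ± 0.10 (SE; 95% interval 1.01 to 1.42; adjusted p = 5.26e-08 by edgeR). The call held under all 15 alternatives to the main fit, which gave 1.03 to 1.40. Csf3 was a low to middling transcript in these cells: its mean CPM was above that of 36.8% of the genes tested.

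Csf2, the gene of GM-CSF, had 3 and 0 counts with the empty vector, against 5 and 8 with Dnm3os, which is 0.0752, 0, 0.170 and 0.233 CPM. The Dnm3os libraries had the higher counts, but a count of 0 in empty vector library 2 allows up to 3 counts or 0.0849 CPM. Summed over groups, 13 counts against 3 gave a depth-adjusted ratio of 5.12 with a 95% exact Clopper-Pearson interval of 1.41 to 28.0, which covers counting error only. It did not pass the filter on low counts, and in the fit without a filter its adjusted p was 0.178 by edgeR. The counting interval lay above 1, but the difference did not pass the adjusted test over libraries.

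Csf1, the gene of M-CSF, was also scarce, with 28, 23, 27 and 26 counts or 0.702, 0.651, 0.917 and 0.758 CPM in the same order of libraries. The Dnm3os libraries were slightly above the others, and the mean was above that of 8.30% of the genes tested. The log2 fold change was 0.30 ± 0.31 (95% interval -0.35 to 0.94; adjusted p = 0.652 by edgeR), so these counts leave room for anything from a small fall to a 1.92-fold rise. The files list 3 transcripts of Csf1, and the other isoforms, at 11 to 21 counts a library, had fitted log2 fold changes of 0.43 and 0.42, neither called. Isoforms of 1 gene can share reads, as a further Csf3r isoform had the same counts as the kept transcript in every library. The Csf1 isoforms are therefore not independent measurements.

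Csf1r, the M-CSF receptor, had 25426 and 21580 counts with the empty vector, against 22525 and 25351 with Dnm3os. Scaled for depth these were 637, 611, 765 and 739 CPM, so that the groups did not overlap, and the mean was above that of 98.6% of the genes tested. The means were 624 ± 18.9 and 752 ± 18.4 CPM, and the log2 fold change was 0.27 ± 0.03 (95% interval 0.21 to 0.33; adjusted p = 5.64e-07 by edgeR). The receptor thus rose by a small amount that exceeded the spread between libraries, and all 15 alternatives kept the call with values of 0.24 to 0.30. Of the 9 macrophage markers tested, Itgam (1.01), the Fc receptor gene Fcgr1 (0.75) and Lyz2 (0.15) were also higher and Adgre1 (-0.30) and Cd68 (-0.11) lower on the log2 scale, and the other 4 were not called.

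Csf2ra, the alpha chain that binds GM-CSF, was at 69.7, 68.4, 73.2 and 77.6 CPM. The lower Dnm3os library was above both empty vector libraries by little, and the means were 69.1 ± 0.862 and 75.4 ± 3.06 CPM. The log2 fold change was 0.13 ± 0.04 (95% interval 0.04 to 0.21; adjusted p = 0.0467 by edgeR). The call was lost in 9 of its 15 alternatives, with DESeq2 (adjusted p = 0.335) and without each of the 4 libraries in turn (adjusted p = 0.0586 to 0.411 by edgeR), the last value without Dnm3os library 2, where the log2 fold change was 0.08.

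Csf2rb, the shared signalling chain for GM-CSF, interleukin 3 and interleukin 5, was at 31.9, 31.6, 34.2 and 36.5 CPM. Both Dnm3os libraries were higher, with means of 31.7 ± 0.161 and 35.3 ± 1.56 CPM, but the log2 fold change of 0.16 ± 0.06 (95% interval 0.04 to 0.28) did not pass the test (adjusted p = 0.0854 by edgeR). Csf2rb2 went the other way, at 19.2, 19.9, 17.7 and 18.3 CPM. Its means were 19.6 ± 0.545 and 18.0 ± 0.413 CPM, with a log2 fold change of -0.12 ± 0.07 (95% interval -0.26 to 0.02; adjusted p = 0.330 by edgeR). With the counts of the paralogs summed, the log2 fold change was 0.06 (adjusted p = 0.534 by edgeR).

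Csf2rb2 made up 37.6% of the counts of the pair in empty vector library 1 (95% Wilson interval 35.5 to 39.7%) and 38.7% in library 2 (36.5 to 40.9%). In Dnm3os libraries 1 and 2 it made up 34.1% (31.7 to 36.5%) and 33.4% (31.3 to 35.6%). The group means of 38.1 ± 0.777% and 33.7 ± 0.474% differed by more than the spread between libraries, although intervals of single libraries overlapped between groups and cover counting error only. An exact two-sided permutation test gave p = 0.333, the smallest that 2 against 2 libraries allow, so it cannot decide whether the shares differ. These shares rest on reads that the authors' counting had to assign between the paralogs.

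**Figure D2:**
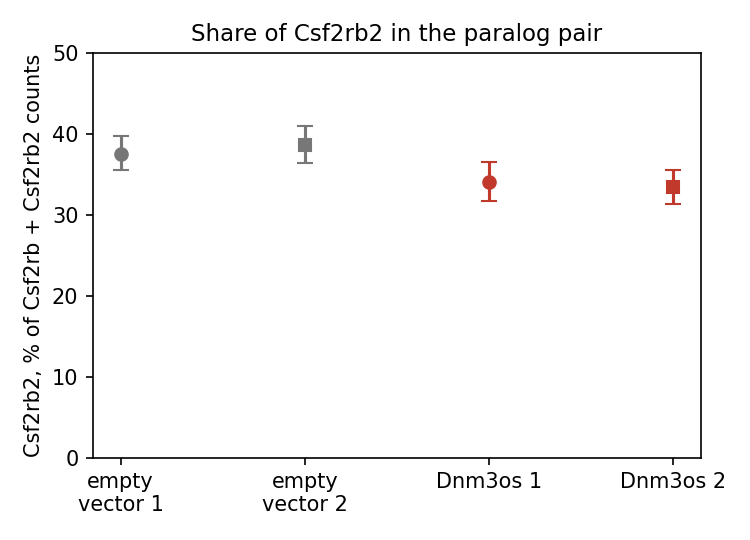
Share of Csf2rb2 in the summed counts of Csf2rb and Csf2rb2, in percent, for each of the 4 libraries; bars are 95% Wilson intervals. The empty vector libraries (grey) lie at 37.6 and 38.7% and the Dnm3os libraries (red) at 34.1 and 33.4%.

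Csf3r, the G-CSF receptor and a gene best known from neutrophils, had 149, 126, 100 and 121 counts, or 3.74, 3.57, 3.40 and 3.53 CPM. The Dnm3os libraries were marginally below the others. The log2 fold change was -0.08 ± 0.14 (95% interval -0.37 to 0.22; adjusted p = 0.830 by edgeR). While its ligand gene Csf3 rose, the receptor gene thus showed a value between 1.17-fold higher and 0.772 times the empty vector level.

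**Figure D3:**
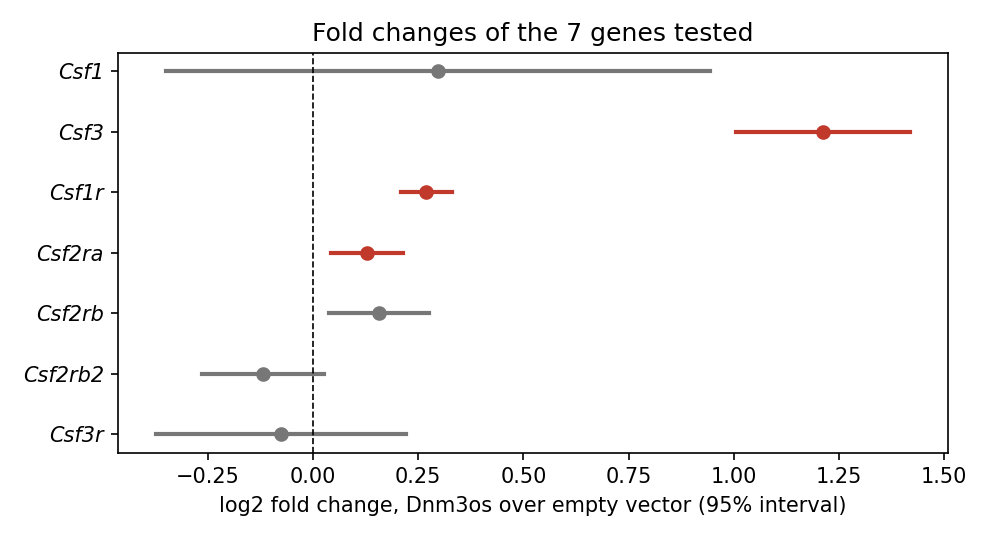
Log2 fold change of Dnm3os over empty vector for the 7 genes tested, with 95% intervals from the edgeR fit; red marks an adjusted p under 0.05 and the dashed line the median of all genes tested. Csf3 lies at 1.21, Csf1r at 0.27 and Csf2ra at 0.13, and the interval of Csf1 is the widest.

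Other ligands and receptors of these families were next read from a list of 9 genes. Il34, the other ligand of the M-CSF receptor, had 186, 126, 62 and 76 counts, or 4.66, 3.57, 2.11 and 2.22 CPM. Both Dnm3os libraries were below both empty vector libraries, with means of 2.16 ± 0.0778 and 4.11 ± 0.776 CPM, and the log2 fold change was -0.93 ± 0.17 (adjusted p = 0.000475 by edgeR). Per transcript length Il34 was at 2.29 ± 0.432 CPM per kb in the empty vector and 1.20 ± 0.0433 in the Dnm3os libraries, above Csf1 in both groups. Kitl, the stem cell factor whose receptor belongs to the same kinase family as CSF1R, fell from 51.3 ± 0.532 to 38.2 ± 1.29 CPM (-0.43 ± 0.05; adjusted p = 1.99e-06 by edgeR). Of the 9 genes 4 were tested, 0 rose and these 2 fell, where 6.5% of all genes tested were called higher and 5.74% lower. The median log2 fold change of the list was -0.20. No gene of the list was higher before adjustment either (0 at p under 0.05), nor by limma-voom (0) or DESeq2 (0).

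The FLT3 ligand gene Flt3l (4.61, 4.36, 4.01 and 5.37 CPM) and the interleukin 5 receptor chain Il5ra (0.677, 0.792, 0.510 and 0.962 CPM) overlapped between groups and were not called. The receptor genes Kit and Flt3, the cytokine gene Il3 and its receptor chain Il3ra had 0 counts in all libraries, and Il5 had 2 counts in Dnm3os library 1 alone. Per library a count of 0 allows up to 0.0752 to 0.102 CPM.

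**Figure D4:**
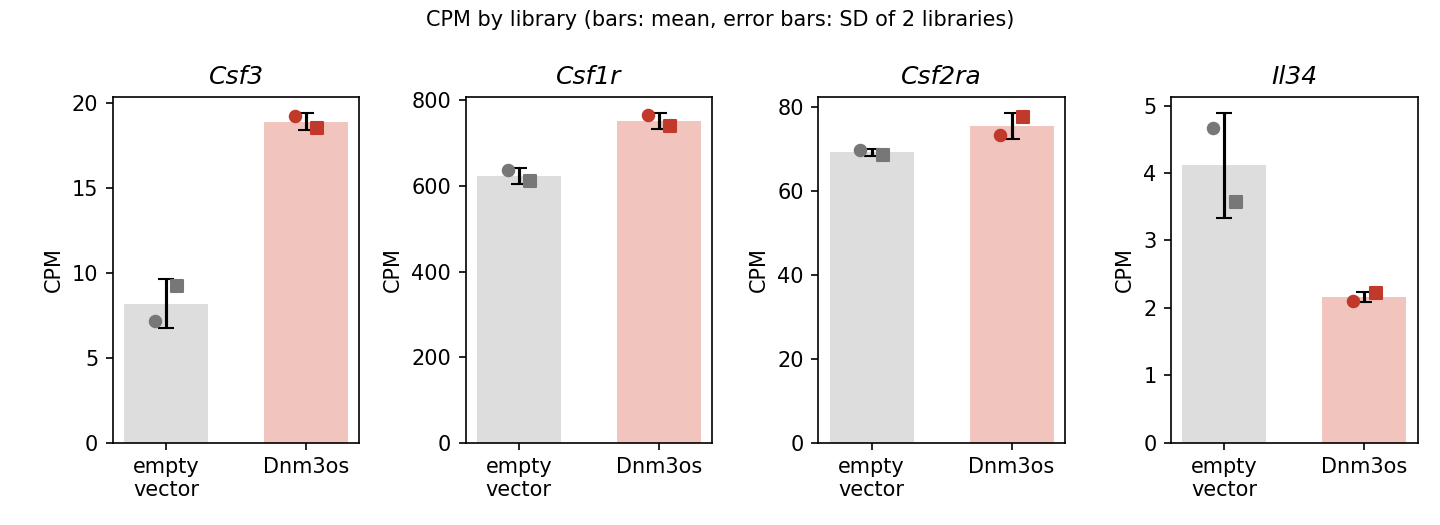
CPM of Csf3, Csf1r, Csf2ra and Il34 in each library (points), with the group mean (bars, from 0) and the SD of 2 libraries (error bars). Csf3 rises from 8.18 to 18.9 CPM and Il34 falls from 4.11 to 2.16 CPM, while Csf1r and Csf2ra differ by smaller fractions of their level.

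Genes listed for signalling from these receptors, inhibitors of it among them, moved in both directions by small amounts. There were 37 tested genes, of which 4 rose and 5 fell, and 28 were not called, with a median log2 fold change of 0.00. These counts stand beside 6.5% of all genes tested called higher and 5.74% lower. Among genes that rose were the adaptor Dok2 (0.27 ± 0.04), Socs3, the feedback inhibitor of the G-CSF receptor (0.44 ± 0.09), and the phosphatase Ptpn6 (0.12 ± 0.03). Socs3 was at 20.4, 16.5, 24.2 and 25.8 CPM, and its call was lost without Dnm3os library 2. Ptpn6 was not called when any library other than empty vector library 1 was left out, and 2 genes of the list rose without Dnm3os library 2. Among genes that fell were the kinases Src (-0.45 ± 0.06) and Fgr (-0.29 ± 0.04) and the phosphoinositide 3-kinase catalytic subunit Pik3cb (-0.29 ± 0.04). Pik3r5 (-0.25 ± 0.03), a regulatory subunit that pairs with a different catalytic subunit, fell as well.

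Transcription factors listed for these ligand and receptor genes were likewise mixed: 6 of 21 tested genes rose, 4 fell and 11 were not called (median 0.03). Whether the listed factors act on those genes in these cells was not tested. Over all genes tested the shares called were 6.5% higher and 5.74% lower. Irf8, a factor of the monocyte lineage, rose from 16.9 ± 0.654 to 26.0 ± 0.828 CPM (0.62 ± 0.07), and Cebpd, of the C/EBP family that binds the Csf3 and Csf3r promoters, from 24.5 ± 0.685 to 36.3 ± 1.62 CPM (0.57 ± 0.06). Jun (0.14 ± 0.04) and Klf4 (0.30 ± 0.09) rose, but DESeq2 called neither, nor did edgeR with isoforms summed or when any library but empty vector library 1 was left out, and the call of Klf4 was lost without that library too. Nfatc1 (-0.41 ± 0.04), the AP-1 genes Fosl2 (-0.34 ± 0.03) and Fos (-0.23 ± 0.05), and Mitf (-0.18 ± 0.04) fell, Fos not without Dnm3os library 2 and Mitf not without Dnm3os library 1 or by DESeq2. With either Dnm3os library left out 3 genes of this list rose, and 2 did with isoforms summed.

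Because the Csf2 and Csf3 mRNAs are rich in ATTTA pentamers, 12 decay and stability factors of such mRNAs were read, and all were tested. Zfp36l1, which promotes decay, rose from 30 and 16 counts to 145 and 166, or from 0.752 and 0.453 to 4.93 and 4.84 CPM (2.99 ± 0.21; adjusted p = 5e-10 by edgeR). Its paralog Zfp36 (tristetraprolin), the best known decay factor of Csf2 mRNA, was at 74.0, 71.0, 79.8 and 78.4 CPM (0.12 ± 0.04; adjusted p = 0.0433 by edgeR), a call lost in 7 of its 15 alternatives, among them DESeq2 and the fits that left out either Dnm3os library or empty vector library 2, which kept Zfp36l1 as the 1 gene called higher. In the main fit 0 fell, with 1 gene lower before adjustment (p under 0.05) and 0 by limma-voom or DESeq2, while 1 fell in the fit of unfiltered counts and when either library numbered 1 was left out. The median of the list was 0.00, and over all genes tested 6.5% were called higher and 5.74% lower.

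Of 20 genes known to be induced by CSF1 or GM-CSF in macrophages, 17 were tested. Of these 8 rose, 2 fell and 7 were not called, with a median log2 fold change of 0.22. Over all genes tested 6.5% were called higher and 5.74% lower, and the list was chosen with earlier results of these data known. Ccl2, a chemokine that draws monocytes, went up from 195 ± 0.290 to 322 ± 14.0 CPM (0.73 ± 0.03), and the integrin chain Itgax (CD11c) from 7.16 ± 0.725 to 12.3 ± 0.294 CPM (0.79 ± 0.10). Itgax is also 1 of 6 dendritic cell markers read, which summed to 13.7 and 14.0 CPM in the empty vector and 18.5 and 19.1 CPM with Dnm3os. Itgax carried that rise, as the other 5 summed to 7.04 and 6.31 CPM against 6.42 and 6.62 CPM. The survival gene Bcl2a1b, which has close paralogs (0.36 ± 0.06), and the coactivator Ppargc1b (0.60 ± 0.11) also rose, Ppargc1b not without Dnm3os library 2, where 5 genes of the list rose. The cyclin gene Ccnd2 fell from 34.3 ± 1.32 to 19.9 ± 0.563 CPM (-0.78 ± 0.06), as did Plau, the urokinase gene (-0.22 ± 0.04), which DESeq2 did not call, leaving 1 lower. The plot of pathway genes gives all values.

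**Figure D5:**
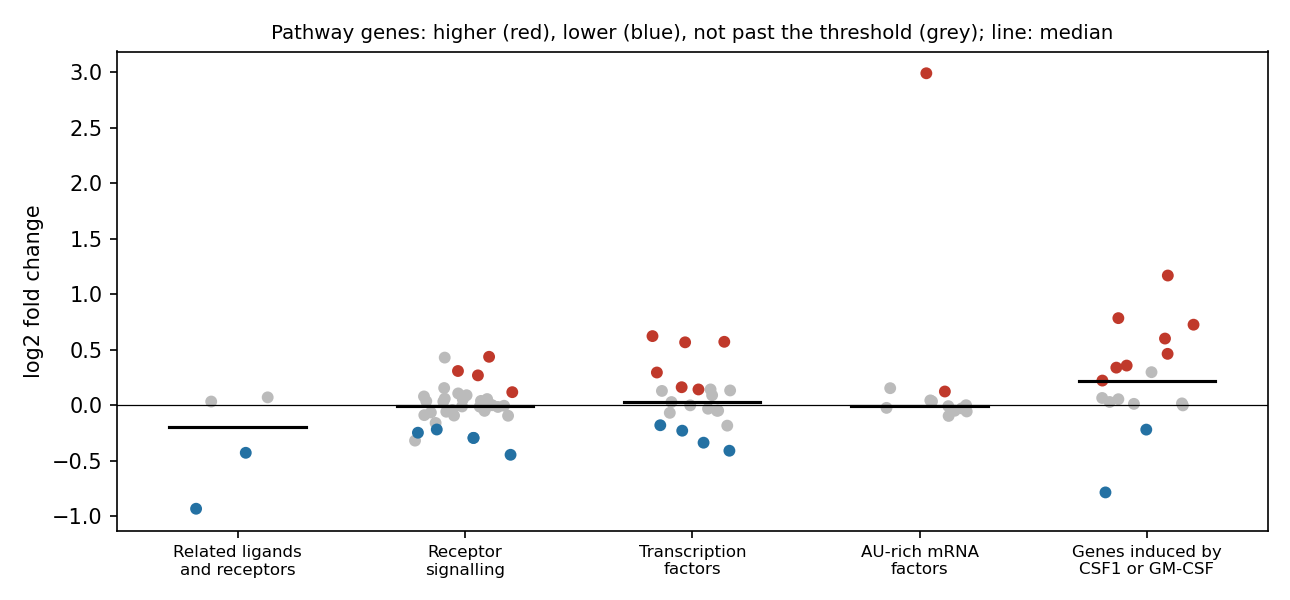
Log2 fold changes of the tested genes of 5 lists: related ligands and receptors, receptor signalling, transcription factors, AU-rich mRNA factors and genes induced by CSF1 or GM-CSF. Red points were called higher, blue lower and grey neither, and each line is a list's median, from -0.20 to 0.22; the point at 2.99 is Zfp36l1.

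For the called members, the genes with the most similar profiles over the 4 libraries were sought among 9539 tested genes with a mean of at least 5 CPM, by the Euclidean distance of centred log2 CPM. Nearest to Csf3 were Fabp4, a fatty acid carrier (distance 0.103), Pld4, of the phospholipase D family (0.159), and Cybb, the oxidase subunit (0.181), with log2 fold changes of 1.30, 1.30 and 1.20. Nearest to Csf1r were the sterol reductase gene Tm7sf2 (0.0287), the interferon-induced Ifi27l2a (0.0288) and the receptor feedback inhibitor Errfi1 (0.0302). Their log2 fold changes were 0.25, 0.25 and 0.29, and that of Tm7sf2 was not called (adjusted p = 0.188 by edgeR). Nearest to Csf2ra were the ubiquitin ligase gene Syvn1 (0.0120), the sialic acid synthase gene Nans (0.0135) and Rhbdf2, which helps shedding of membrane proteins (0.0148). These 3 had log2 fold changes of 0.13, 0.13 and 0.12. With 4 points in 2 groups, such likeness is a description, and many genes share a profile this simple.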

How the data were processed

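Per the labels' protocols, poly(A) RNA went into TruSeq libraries read on a HiSeq. TopHat, Bowtie2, DESeq2 and mm9 are named in the submitters' processing notes, with no roles; not given in the sources used here are the counter, the annotation and the strand setting. The authors' raw column holds read counts for 35786 RefSeq transcripts per library, and the deposited normalized column is a signal equal to the raw count times 1 constant per library (0.865 to 1.17), used only as an alternative scaling. Symbols came from a RefSeq table of GRCm38.p6 (35494 transcripts) and a GENCODE table (183), so no genome coordinates are printed; 109 transcripts kept their accession, with 0.246 to 0.276% of the counts. The 45S ribosomal RNA transcript (0.0437 to 0.0813%) was left out.

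The transcript with the highest mean count stood for each gene. Genes passed filterByExpr, were scaled by TMM and tested with edgeR 4.0.16 (glmQLFit, robust) in R 4.3.3; a standard error is the size of the log2 fold change divided by the root of its F statistic. Alternatives were other scalings and filters, DESeq2 1.42.0, limma-voom (3.58.1), a replicate block, each library left out, isoforms summed or fitted apart, and the paralogs summed. Isoforms can share reads, so summing them may count a read more than once. In counts simulated with the same dispersion for all genes, the script recovered rises of 1 log2 unit in genes that were not scarce. Changes as small as those of Csf1r and Csf2ra were not simulated. Members and gene lists were chosen with earlier results of these data known. Named were all members, all related ligands and receptors, up to 4 called genes per list and direction by adjusted p, and the 3 nearest profiles of each called member; other genes named in the text, the markers among them, were chosen after their values were seen. 1 gene that the rule names is not reported here.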

Additional observations from a re-analysis of the deposited data

How the results depend on the processing

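The calls of Csf3 and Csf1r held under all 15 alternatives of each, and Csf1, Csf2rb, Csf2rb2 and Csf3r stayed uncalled under all of theirs, the crossed pairing given last aside. Csf2ra lost its call with DESeq2 size factors (log2 fold change 0.13), upper-quartile factors (0.12), DESeq2 (0.13), limma-voom (0.13), isoforms summed (0.13) and each library left out (0.085 to 0.17, lowest without Dnm3os library 2). Csf2rb2 turned to 0.057 when summed with Csf2rb. The number of members called higher was 2 to 4 over the alternatives, against 3. Over all genes, 856 were called higher and 756 lower; DESeq2 called 404 and 362, and leaving out 1 library gave 465 to 808 higher and 395 to 786 lower, where 491 and 455 came without Dnm3os library 1 and the lowest counts without Dnm3os library 2. The labels state no shared origin of same-numbered libraries. The correlation of their deviations from group means was -0.16 over 10634 genes. With 1 free deviation a group, it cannot show whether they had a shared origin. A replicate block gave 869 higher and 782 lower genes and 3 members higher. The crossed pairing, added after the data were seen, gave 1053 higher and 945 lower genes and 4 members higher. With 1 library left out, its partner stands alone and is taken to vary as the other group does. Csf1 and Csf2 are limited by their counts.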

Other observations

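RAW 264.7 cells can form osteoclasts, a fate in which CSF1R signalling takes part, and a list of 8 osteoclast genes was read as well. Of 7 tested, 2 rose and 4 fell in the Dnm3os libraries, where 6.5% of all genes tested were called higher and 5.74% lower. The summed level of the list was 410 and 433 CPM in the empty vector and 276 and 269 CPM in the Dnm3os libraries. Ctsk carried nearly all of that fall: the other 7 genes summed to 203 and 213 CPM against 200.4 and 195 CPM. The collagen-degrading protease Ctsk (-1.51 ± 0.04), the fusion gene Dcstamp (-0.25 ± 0.04) and the proton pump subunit Atp6v0d2 (-0.35 ± 0.05) fell on the log2 scale (± SE). Mmp9 (0.48 ± 0.05) rose, and so did Acp5, the tartrate-resistant acid phosphatase (0.20 ± 0.06), close to the threshold (adjusted p = 0.0424 by edgeR). The calls of these osteoclast genes were not followed over the alternatives. Ocstamp, another fusion gene, fell from 15.3 and 14.8 CPM to 6.86 and 8.16 CPM. The calcitonin receptor gene Calcr had 0 counts in all libraries. All 8 genes were listed with earlier results of these data known.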
